A study of Homo sapiens with 32 samples.

Results

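The genes described here encode the subunits of the mitochondrial respiratory chain and of ATP synthase that are transcribed in the nucleus. They were taken as all rows of the gene count table whose Ensembl identifier maps to a protein-coding symbol of the NDUF, SDH, UQCR, CYC1, COX or ATP5 families. This gave 81 of the 17788 genes in the table, of which 36 belonged to complex I, 4 to complex II, 10 to complex III, 12 to complex IV (NDUFA4 among them) and 19 to ATP synthase. The symbols COX6A2, COX7B2 and COX8C also match, but had no row in the table used here. Of the 81 members, 79 passed the filter on low counts and were tested among 14865 genes, and COX6B2 and COX7A1 did not pass it. The rule used no measured value.

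RNA sequencing was performed on MCF10A, an immortalized, non-tumorigenic human mammary epithelial cell line. Its cells undergo an epithelial-mesenchymal transition (EMT) when exposed to the cytokine TGFβ1, and the study asked how far this response depends on the transcription factor JUNB. The 8 groups comprised JUNB WT and JUNB-edited (mut) cells, each treated with solvent (BSA in PBS) or with TGFβ1 at 5 ng/ml for 6, 24 or 72 h. Each group held 4 libraries, made from 2 replications of 2 cell clones (2 and 27 for WT, 1 and 65 for mut), which makes 32 libraries. All cultures were grown with horse serum, EGF, hydrocortisone, cholera toxin and insulin. The edited clones were made with CRISPR/Cas9 and are labelled as JUNB knock-out. The study's text describes an extended deletion in JUNB from which a shortened, TGFβ1-inducible polypeptide remained. Each clone grew from a single cell, so that a difference between WT and mut rests on 2 clones of each genotype, and clone effects and the JUNB genotype cannot be told apart beyond that. The labels give time 0 for the solvent cultures, whereas the methods state solvent exposure for 72 h.

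The respiratory chain consists of complexes in the inner mitochondrial membrane that pass electrons from NADH and succinate to oxygen and pump protons, and ATP synthase uses the resulting gradient to make ATP. Most of its subunits are encoded by nuclear genes and imported into the mitochondrion, and a small set is encoded by mitochondrial DNA. Transcription of the nuclear genes is known to involve the factors NRF1, GABP, YY1 and the estrogen-related receptors, together with coactivators of the PGC-1 family.

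Promoter windows from 250 bases before to 50 bases after the transcription start were taken from RefSeq (GRCh38.p14) and matched 64 of the members. They were searched on both strands for GCGCATGCG (NRF1), CCGGAAG (GABPA and other ETS factors), AAGATGGC (YY1), AAGGTCA (estrogen-related receptors) and TGANTCA (AP-1, the factor of which JUNB is a subunit). The NRF1 letters were present in 10 of 64 member windows (15.6%) and in 2.10% of 27305 windows of all genes. The ETS letters were in 19 (29.7%, against 10.7%), the YY1 letters in 11 (17.2%, against 3.03%) and the estrogen-related receptor letters in 9 (14.1%, against 3.97%). The AP-1 letters were in 3 member windows (4.69%, against 7.76%), those of COX7C, NDUFB3 and NDUFS6. These shares describe letters in a window and not bound sites. The 27305 windows were not restricted to protein-coding genes or to the genes tested here, whereas all members are protein-coding and most were tested. Windows of 4 members are printed because these genes led a comparison described further on, SDHD and UQCRC1 among the largest differences between mut and WT at 72 h, COX5B with the largest fall among members called in mut at 72 h and ATP5MC1 with the largest fall in WT. The letters of the motifs are in capitals.
SDHD (chr11:112086623-112086922, plus strand): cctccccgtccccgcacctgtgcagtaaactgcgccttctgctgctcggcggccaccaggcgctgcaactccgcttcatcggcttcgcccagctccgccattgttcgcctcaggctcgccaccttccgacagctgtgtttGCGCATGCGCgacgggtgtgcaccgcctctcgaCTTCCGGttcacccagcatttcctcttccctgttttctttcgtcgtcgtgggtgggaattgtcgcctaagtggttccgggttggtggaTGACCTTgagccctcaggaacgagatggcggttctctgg
UQCRC1 (chr3:48609597-48609896, minus strand): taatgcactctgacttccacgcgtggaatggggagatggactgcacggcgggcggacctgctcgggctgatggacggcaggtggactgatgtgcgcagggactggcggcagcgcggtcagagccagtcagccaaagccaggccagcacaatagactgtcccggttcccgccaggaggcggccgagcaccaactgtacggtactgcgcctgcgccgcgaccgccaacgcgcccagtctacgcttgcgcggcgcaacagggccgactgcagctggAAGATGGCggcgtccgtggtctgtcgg
COX5B (chr2:97645812-97646111, plus strand): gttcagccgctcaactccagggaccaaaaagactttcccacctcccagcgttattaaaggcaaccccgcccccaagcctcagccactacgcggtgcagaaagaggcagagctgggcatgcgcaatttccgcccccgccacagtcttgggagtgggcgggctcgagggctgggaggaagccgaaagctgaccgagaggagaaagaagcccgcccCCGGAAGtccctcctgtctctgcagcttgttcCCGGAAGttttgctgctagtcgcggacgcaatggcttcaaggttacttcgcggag
ATP5MC1 (chr17:48892537-48892836, plus strand): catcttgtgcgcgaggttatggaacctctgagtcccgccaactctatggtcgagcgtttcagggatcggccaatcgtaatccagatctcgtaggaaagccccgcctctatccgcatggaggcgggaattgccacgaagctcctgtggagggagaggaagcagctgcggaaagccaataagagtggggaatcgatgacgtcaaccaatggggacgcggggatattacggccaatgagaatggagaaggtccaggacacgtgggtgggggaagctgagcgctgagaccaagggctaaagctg
The SDHD window held NRF1, ETS and estrogen-related receptor letters, UQCRC1 held 1 YY1 match, COX5B held 2 ETS matches, and ATP5MC1 held 0 of the searched motifs.

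The libraries held 39702412 to 54651906 counts, at which 3 counts correspond to 0.0549 to 0.0756 CPM (counts scaled to a common library total). Among mammary epithelial markers KRT5 had a mean of 3650 to 7720 CPM over the groups, whereas PTPRC, CD3E and ALB, markers of leukocytes and hepatocytes, reached at most 0.0949 CPM in any library. DCN, a fibroblast-associated gene, had group means from 8.76 to 29.4 CPM. KRT14, KRT17, TP63, CDH3, KRT8, KRT18, EPCAM and CDH1 were also chosen as epithelial markers, and PECAM1, CDH5 and PDGFRA as markers of other cell types. Their levels are not given here, so that the values above are not a full check of cell identity. JUNB itself was at 89.7 to 117 CPM in the WT solvent libraries and at 69.2 to 172 CPM in the mut solvent libraries. These counts cover the whole gene and do not check the genotype. The share of counts held by the 10 most abundant genes was 4.44 to 4.86% in WT solvent, 7.79 to 9.43% in WT at 72 h, 4.30 to 5.04% in mut solvent and 5.05 to 5.89% in mut at 72 h. This share moved with the treatment, and its part in the CPM differences was not tested beyond the scaling comparison that follows. Under library-size scaling, as the study used, the median log2 difference over all genes was -0.19 in WT at 72 h against solvent, and with TMM factors, which correct for composition, it was -0.03. Of all genes called in that comparison, 73.5% were lower with library-size scaling, compared with 52.0% for TMM factors. Both scalings are therefore given for most counts of called members, and member medians at 72 h are also stated relative to the median of all genes.

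In WT cells TGFβ1 was followed by lower transcript levels across all 5 complexes from 24 h on under library-size scaling. After 72 h 69 of 79 tested members had fallen and 0 had risen (limma-voom, adjusted p under 0.05), where 38.4% of all genes tested were called lower. The member median log2 difference was -0.43, which is 0.24 below the median of all genes. At 24 h 63 members were lower and 0 higher, against a background of 38.0% called lower, with a member median of -0.35. With TMM factors 53 members were lower at 72 h (all genes 23.3%) and 39 at 24 h (all genes 23.2%), and again none was higher. Those at 24 h were 16 of 36 in complex I, 3 of 4 in complex II and 5 of 10 in complex III. They were 13 of 19 in ATP synthase and only 2 of 10 in complex IV, where 7 were called under library-size scaling. At 6 h only SDHD (-0.23 ± 0.08 SE, adjusted p = 0.0476) and NDUFV3 (-0.25 ± 0.06, adjusted p = 0.00667) were called lower, with 11.9% of all genes called lower. Neither was called with TMM factors. In 63 of 79 members the 4 WT libraries at 72 h all lay below the 4 solvent libraries, which held for 34.0% of all genes. In bulk RNA, fewer cells of a kind and less RNA per cell cannot be told apart.

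The summed level of all 81 members was 9102, 9127, 8559 and 8668 CPM in the 4 WT solvent libraries. It was 6008, 5987, 5960 and 6400 CPM at 72 h, so that the groups did not overlap. The WT means were 8864 ± 293 CPM (SD, n = 4) without TGFβ1, 8614 ± 310 after 6 h, 6640 ± 101 after 24 h and 6089 ± 209 after 72 h. The mut means were 9433 ± 436 without TGFβ1, 9557 ± 332 after 6 h, 8204 ± 624 after 24 h and 7874 ± 606 after 72 h. The lowest mut library at 72 h, with 7195 CPM, was above every WT library at that time. Each of the 5 complexes showed lower sums at 24 and 72 h than in solvent in WT, and the mitochondrially encoded subunits are plotted beside them.

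**Figure D1:**
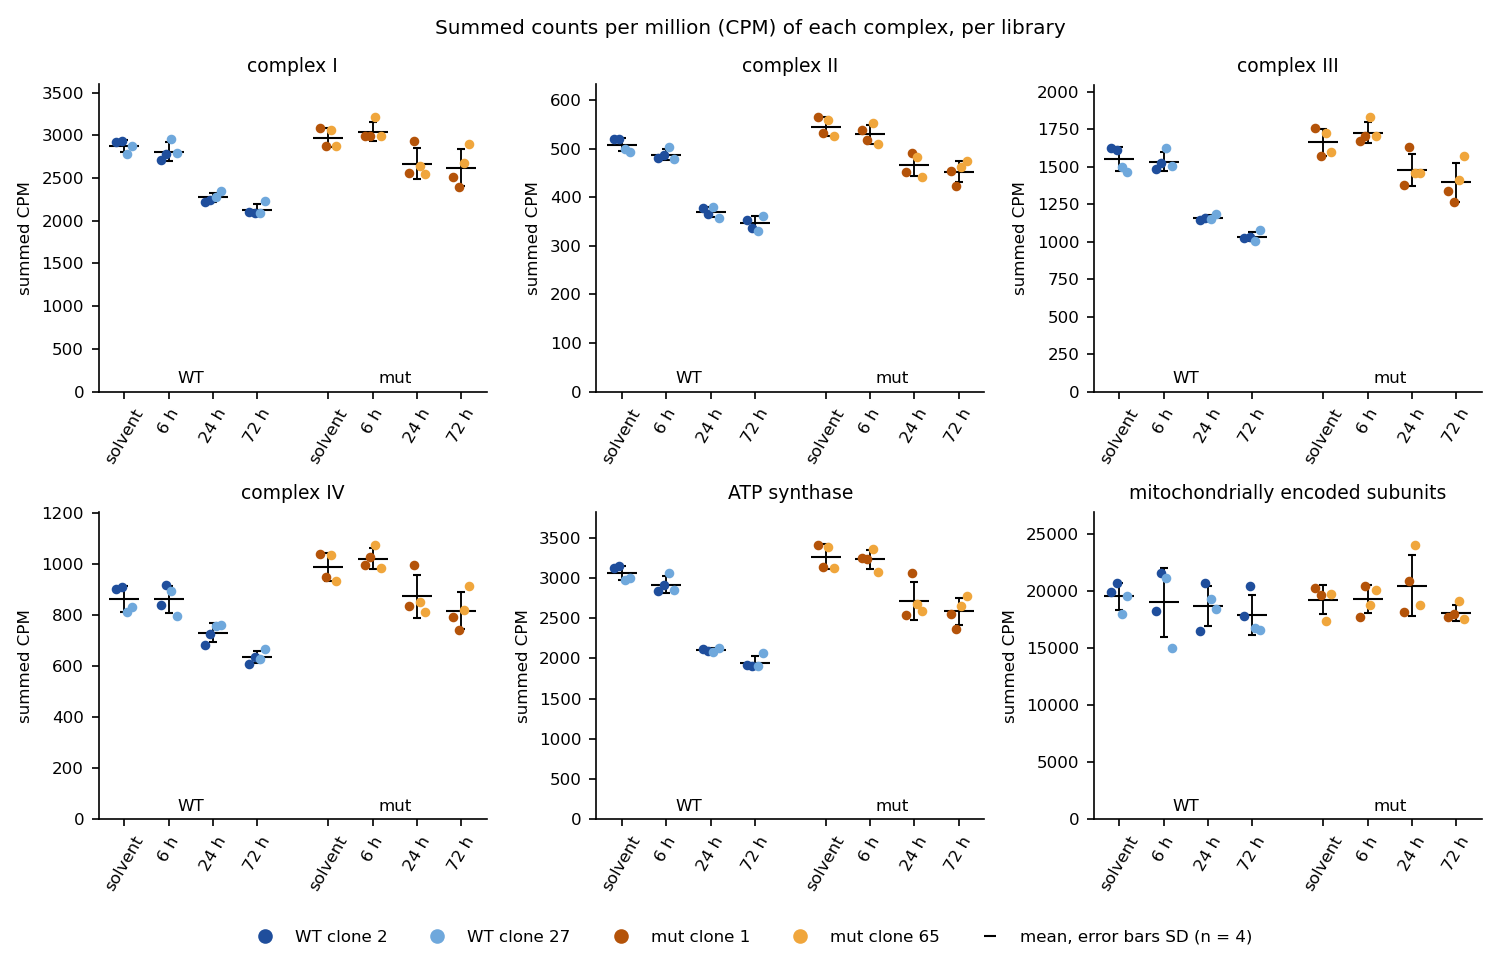
Summed CPM of the nuclear-encoded members of each complex and of the 13 mitochondrially encoded subunits (y axis) in every library, by genotype and treatment (x axis). Points are libraries coloured by clone, horizontal bars are means and error bars SD (n = 4). The ATP synthase sum was 3062 ± 89.8 in WT solvent and 1946 ± 82.0 at 72 h, whereas the mitochondrially encoded sum was 19563 ± 1170 and 17912 ± 1770.

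Complex I oxidizes NADH. In WT at 72 h 32 of its 36 members were lower, 6 of 7 core and 26 of 29 accessory subunits, with medians of -0.56 and -0.34, beside 38.4% of all genes called lower. With TMM factors 20 of 36 were lower, 6 of 7 core and 14 of 29 accessory subunits, beside 23.3% of all genes. Among the core subunits, NDUFV1, which binds NADH, fell by 0.65 on the log2 scale (SE 0.07, adjusted p = 2.71e-08), and NDUFS1, the largest iron-sulfur subunit, fell by 0.40 (SE 0.06, adjusted p = 2.63e-06). The accessory subunit NDUFB5 showed the largest fall of the complex. It was at 103, 109, 109 and 101 CPM in WT solvent and at 62.5, 59.5, 58.4 and 65.8 CPM after 72 h (log2 difference -0.78 ± 0.08 SE, adjusted p = 5.42e-09). All treated libraries were far below all solvent libraries. The accessory subunit NDUFS5, the most abundant member of complex I per kb of exon, was at 116, 110, 117 and 139 CPM in WT solvent and at 102, 108, 104 and 117 CPM at 72 h. These groups overlapped, and the difference of -0.16 did not pass the test (adjusted p = 0.0935). The other members of complex I not called at 72 h were NDUFA11, NDUFB4 and the core subunit NDUFV2.

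Complex II, succinate dehydrogenase, also acts in the tricarboxylic acid cycle. Its members SDHA, the flavoprotein, SDHB, the iron-sulfur subunit, and the membrane anchors SDHC and SDHD were all lower in WT at 72 h, with differences of -0.59, -0.53, -0.30 and -0.78. SDHD was at 106, 106, 104 and 103 CPM in WT solvent and at 95.3, 96.4, 87.8 and 80.1 CPM after 6 h. After 24 h its libraries had 65.1, 63.2, 71.4 and 57.9 CPM (-0.71 ± 0.08 SE, adjusted p = 3.51e-08), and after 72 h 61.7, 60.4, 57.4 and 65.7 CPM (adjusted p = 9.07e-09). Every library at 24 and 72 h lay below every library at 6 h, and those below every solvent library. SDHC was not called at 24 h (-0.09, adjusted p = 0.195).

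Complex III passes electrons to cytochrome c, and all of its 10 members were lower in WT at 72 h, beside 38.4% of all genes. With TMM factors 9 of 10 were lower, beside 23.3% of all genes. CYC1, the cytochrome c1 subunit, was at 339, 349, 316 and 275 CPM in solvent and at 186, 169, 199 and 189 CPM at 72 h, with no overlap (-0.78 ± 0.08 SE, adjusted p = 1.24e-08), and it was already lower at 24 h (-0.70 ± 0.08, adjusted p = 6.01e-08). UQCRFS1, the Rieske iron-sulfur protein, fell by 0.66 (SE 0.06, adjusted p = 1.31e-09). UQCRC1, a core protein, was at 364, 363, 338 and 305 CPM in solvent and at 234, 238, 221 and 235 CPM at 72 h, again without overlap. UQCRHL, an intronless copy of the hinge protein gene UQCRH, was counted at 157 to 173 CPM in WT solvent and UQCRH at 49.4 to 65.5 CPM. The transcripts of the pair are nearly identical, so that the split of reads between them is uncertain and differences in either are too.

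Complex IV, cytochrome c oxidase, had 8 of 10 tested members lower in WT at 72 h, the others being COX7A2 (-0.20, adjusted p = 0.13) and NDUFA4. Of all genes 38.4% were called lower. With TMM factors 6 of 10 were lower, beside 23.3% of all genes. COX5B, a zinc-binding subunit, was at 135, 135, 121 and 113 CPM in WT solvent and at 77.4, 83.8, 79.5 and 80.6 CPM at 72 h, without overlap (-0.65 ± 0.09 SE, adjusted p = 3.86e-07). COX5A, another nuclear subunit, had a smaller difference of -0.37 (adjusted p = 0.00276), which was not called with TMM factors (adjusted p = 0.0989). The tissue-restricted forms COX6B2, a testis form, and COX7A1, a heart and muscle form, had at most 0.187 and 0.115 CPM in any library. Their widely expressed partners COX6B1 and COX7A2 had WT differences of -0.41 (adjusted p = 0.000292) and -0.20. The widely expressed COX6A1, COX7B and COX8A, whose tissue-restricted counterparts had no row, had log2 differences of -0.25, -0.63 and -0.40 and were called lower. With TMM factors COX6A1 was not called (adjusted p = 0.508).

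In ATP synthase 15 of 19 members were lower in WT at 72 h, beside 38.4% of all genes. With TMM factors 14 of 19 were lower, beside 23.3% of all genes. The catalytic subunit ATP5F1B, the most abundant member of all per kb of exon, was at 1270, 1280, 1250 and 1210 CPM in WT solvent and at 749, 734, 734 and 796 CPM at 72 h (-0.73 ± 0.05 SE, adjusted p = 2.64e-11). ATP5F1A, the other subunit of the catalytic head, fell by 0.66 (SE 0.05, adjusted p = 5.75e-11). ATP5MC1, one of the genes for the membrane ring subunit c, had the largest fall of any member at both 24 h (-0.86 ± 0.13 SE, adjusted p = 3.09e-06) and 72 h (-0.80 ± 0.13, adjusted p = 9.73e-06). It was at 41.7, 38.1, 34.2 and 39.0 CPM in solvent and at 22.9, 18.9, 20.5 and 25.4 CPM at 72 h, without overlap. ATP5IF1, the inhibitor of the enzyme, was lower too (-0.37 ± 0.07 SE, adjusted p = 2.77e-05). ATP5MGL, a close relative of the subunit gene ATP5MG, was at 3.20 to 5.63 CPM in WT solvent and 72 h libraries and was not called, whereas ATP5MG was lower (-0.38, adjusted p = 0.000456). ATP5MGL overlaps CYB5R3 on the same strand, so that its low counts are uncertain. The remaining members not called were ATP5MF, ATP5PD and ATP5F1E, and ATP5F1E was the only tested member of any complex with a positive sign at 24 h (0.24, adjusted p = 0.338).

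**Figure D2:**
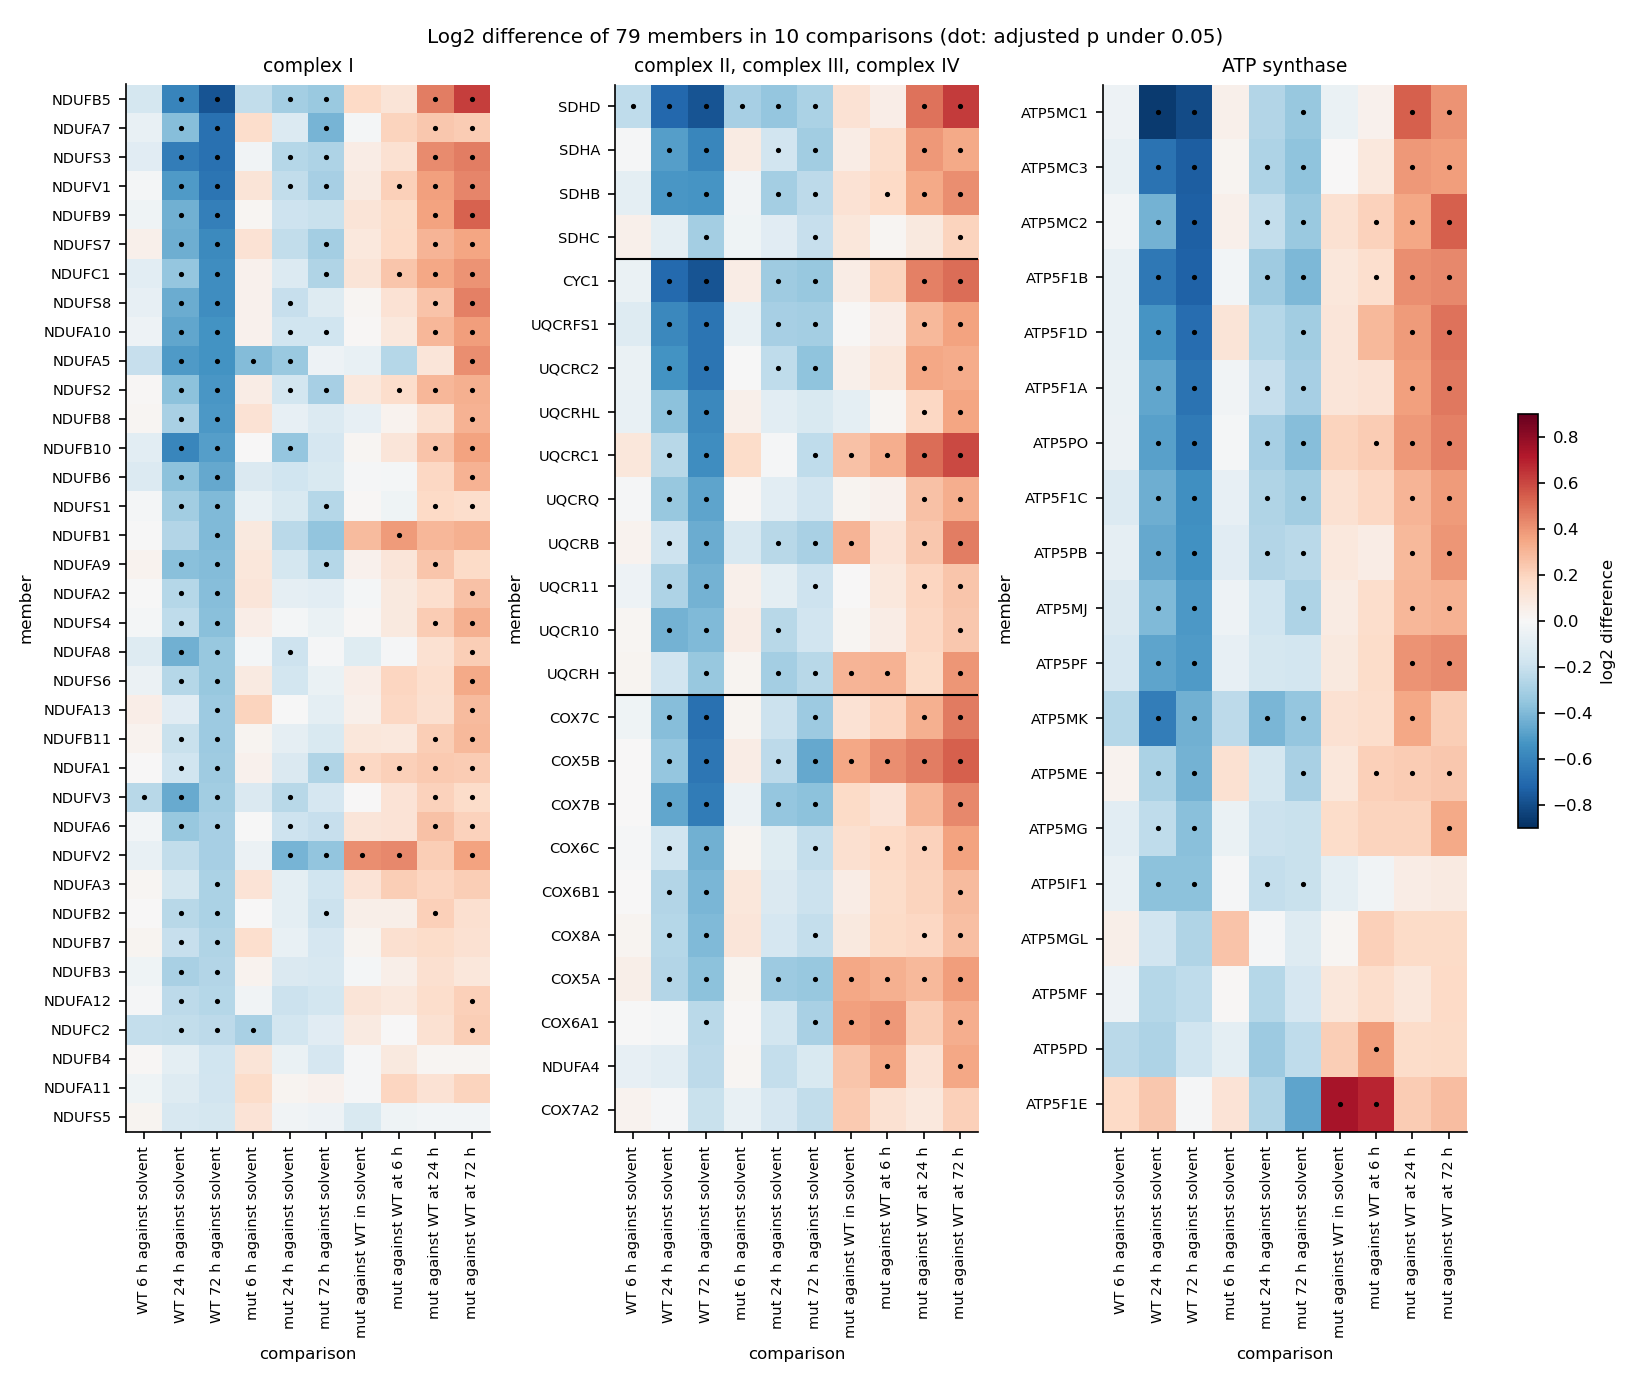
Log2 difference (colour) of the 79 tested members (rows, by complex and ordered by the WT difference at 72 h) in 10 comparisons (columns), with a dot where the adjusted p was under 0.05. In WT at 72 h 69 members carry a dot and none is higher, and in mut against WT at 72 h 63 carry a dot and none is lower.

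In mut cells the same treatment was followed by smaller member differences. At 72 h 45 of 79 members were lower and 0 higher (all genes called lower 16.3%), with a member median of -0.23, which is 0.14 below the median of all genes. At 24 h 33 were lower (all genes 17.1%, median -0.19). With TMM factors 23 were lower at 72 h (all genes 9.91%) and 8 at 24 h (all genes 8.04%). At 6 h SDHD (-0.30 ± 0.08 SE, adjusted p = 0.0208), NDUFA5 and NDUFC2 were called lower, with 4.94% of all genes called lower, and with TMM factors none of them was. In 36 of 79 members the mut libraries at 72 h did not overlap with and lay below those in solvent, against 15.9% of all genes.

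By complex, 14 of 36 members of complex I were lower in mut at 72 h. They comprised 6 of 7 core and 8 of 29 accessory subunits, with medians of -0.30 and -0.15, beside 16.3% of all genes called lower, and the difference between core and accessory subunits was not tested. The 4 members of complex II were all lower, as were 7 of 10 in complex III, 7 of 10 in complex IV and 13 of 19 in ATP synthase. With TMM factors the counts were 7 of 36 in complex I (4 of 7 core and 3 of 29 accessory subunits), 2 of 4 in complex II, 4 of 10 in complex III, 3 of 10 in complex IV and 7 of 19 in ATP synthase, beside 9.91% of all genes. The largest called falls were those of COX5B, the complex I accessory subunit NDUFA7 and ATP5F1B. COX5B was at 165, 146, 172 and 160 CPM in mut solvent and at 111, 102, 113 and 146 CPM at 72 h (-0.46 ± 0.08 SE, adjusted p = 0.000155). The value of 146 CPM came from replication 2 of clone 65, and it equals the lowest solvent value as rounded. NDUFA7 was at 44.6, 39.4, 45.9 and 47.6 CPM in solvent and at 29.8, 30.1, 36.1 and 38.1 CPM at 72 h (-0.42 ± 0.08, adjusted p = 0.000264), without overlap. ATP5F1B was at 1390, 1310, 1360 and 1310 CPM and at 979, 955, 1030 and 1100 CPM (-0.40 ± 0.05, adjusted p = 2.70e-06), also without overlap. At 24 h the largest called falls were those of NDUFV2 (-0.42, adjusted p = 0.0102), ATP5MK, a small subunit of the ATP synthase membrane part (-0.41, adjusted p = 0.0107), and the complex I subunit NDUFB10 (-0.35, adjusted p = 0.00738). Of these NDUFV2 was also called with TMM factors and the others were not. Like the others, NDUFV2 was not called by the edgeR quasi-likelihood test (adjusted p = 0.077) or by DESeq2 (adjusted p = 0.0708). Nor was it with the counts of the replications of a clone summed (adjusted p = 0.0513), again like the others. Without the 24 h library of clone 65 replication 2 NDUFV2 was not called either (adjusted p = 0.0672). NDUFA11, an accessory subunit, was the only tested member with a positive sign, at 24 h (0.02, adjusted p = 0.871) and at 72 h (0.04, adjusted p = 0.778), and was not called.

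Without TGFβ1 few members differed between the genotypes. In solvent 9 of 79 members (11.4%) were higher in mut and 0 lower, beside 6.38% of all genes called higher, and the member median was 0.09. With TMM factors 8 were higher (all genes 6.68%). In 12 members the mut libraries in solvent lay above all WT libraries, against 8.36% of all genes. The called members were ATP5F1E, NDUFV2, COX6A1, COX5A, COX5B, UQCRH, UQCRB, UQCRC1 and NDUFA1. NDUFV2, a core subunit of complex I, was at 15, 17.4, 14 and 15.8 CPM in WT and at 22.0, 21.4, 19.3 and 19.9 CPM in mut (0.42 ± 0.12 SE, adjusted p = 0.0175). COX6A1 was at 70.4, 77.7, 62.4 and 64.2 CPM in WT and at 96.4, 85.5, 89.7 and 82.7 CPM in mut (0.37 ± 0.09, adjusted p = 0.00662). Neither pair of groups overlapped. ATP5F1E, the epsilon subunit of ATP synthase, had the largest difference (0.74 ± 0.19, adjusted p = 0.0104) at low levels, with 4.21, 4.38, 2.03 and 3.54 CPM in WT and 5.23, 6.09, 6.52 and 4.79 CPM in mut. This gene overlaps TUBB1 on the opposite strand and has near-identical copies in the genome, so that its counts are uncertain. NDUFA8 had the lowest p among members with a negative sign (-0.11, adjusted p = 0.26). With the counts of the replications of a clone summed, each genotype had 2 samples. Then 2 members were called in place of 9, beside 659 of 14865 genes tested called higher. ATP5F1E (adjusted p = 0.0504), NDUFV2 (adjusted p = 0.0688) and COX6A1 (adjusted p = 0.0518) were not among these members. Without the WT solvent library of clone 27 replication 1, 4 were called, and ATP5F1E (0.47, adjusted p = 0.0924) and NDUFV2 (adjusted p = 0.0703) were not.

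After TGFβ1 members were higher in mut than in WT in larger numbers. At 6 h 20 of 79 members were higher (all genes called higher 11.3%), at 24 h 48 (all genes 24.7%) and at 72 h 63 (all genes 26.0%), and 0 were lower at any of these times. Without the WT library of clone 27 replication 2, 9 were called at 6 h. With TMM factors 15 were higher at 6 h (1554 of 14865 genes tested), 28 at 24 h (all genes 16.1%) and 45 at 72 h (all genes 18.7%). The member median at 72 h was 0.33, which is 0.23 above the median of all genes. In 56 members the mut libraries at 72 h all lay above the WT libraries, against 22.7% of all genes. By complex, 27 of 36 members of complex I, 4 of 4 of complex II, 10 of 10 of complex III, 9 of 10 of complex IV and 13 of 19 of ATP synthase were higher in mut at 72 h. With TMM factors these counts were 16, 3, 9, 6 and 11 in the same order. SDHD at 72 h was at 93.3, 87.3, 101 and 97.4 CPM in mut, above the WT libraries at 57.4 to 65.7 CPM (0.63 ± 0.08 SE, adjusted p = 7.22e-07). NDUFB5 was at 88.1, 84.9, 102 and 106 CPM in mut, above the WT range of 58.4 to 65.8 CPM (0.62 ± 0.08, adjusted p = 4.96e-07). UQCRC1 was at 321, 313, 346 and 430 CPM in mut and at 221 to 238 CPM in WT (0.59 ± 0.07, adjusted p = 2.77e-07). For these 3 members the genotypes did not overlap at 72 h. NDUFS5 (-0.02, adjusted p = 0.846) and ATP5IF1 (0.08, adjusted p = 0.326) were not called. With the counts of the replications of a clone summed, 6 members were higher at 6 h, 34 at 24 h and 52 at 72 h. Of all 14865 genes tested, 1096, 2751 and 3096 were then called higher. SDHD (adjusted p = 0.000422), NDUFB5 (adjusted p = 0.000435) and UQCRC1 (adjusted p = 0.000404) were still called at 72 h.

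The interaction term tested directly whether the response to TGFβ1 differed between the genotypes. At 72 h the difference was less negative in mut for 26 of 79 members and more negative for 0, where 9.40% of all genes were called in that direction. At 24 h this was the case for 12 members (all genes 7.72%), and at 6 h for 0 members (all genes 0.00673%). With TMM factors 9 members were called at 72 h (all genes 4.53%) and 0 at 24 h (all genes 2.96%). The 26 called at 72 h comprised 11 members of complex I, 3 of complex II, 6 of complex III, 1 of complex IV and 5 of ATP synthase. With TMM factors these counts were 4, 1, 2, 0 and 2 in the same order. The largest terms were those of SDHD (0.49 ± 0.11 SE, adjusted p = 0.00442), UQCRHL (0.44 ± 0.09, adjusted p = 0.00169) and NDUFB5 (0.44 ± 0.11, adjusted p = 0.00815). All 3 were called with TMM factors, at adjusted p = 0.0161, 0.0156 and 0.0276. The catalytic ATP synthase subunits ATP5F1A (0.37, adjusted p = 0.00134) and ATP5F1B (0.33, adjusted p = 0.00504) were also among them. ATP5F1E had a term of opposite sign with the lowest p in that direction (-0.46, adjusted p = 0.306). With replications of a clone summed 3 members were called at 72 h in place of 26, beside 446 of 14865 genes tested called in that direction. SDHD (adjusted p = 0.0534) and NDUFB5 (adjusted p = 0.0746) were not among these members. Without the mut solvent library of clone 65 replication 2, 16 were called at 72 h, and without that of clone 1 replication 2, 5 were called at 24 h.

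Over the 79 tested members the WT difference at 72 h was more negative than the mut difference in 74, and at 24 h in 69. The share over all genes was not counted, but their median interaction term was positive too under library-size scaling. It was 0.10 at 72 h and 0.08 at 24 h, beside 0.24 and 0.18 for the members. With TMM factors it was 0.02 and -0.01, beside 0.15 and 0.09 for the members. Members with larger differences in WT also had larger ones in mut (72 h, Pearson's r = 0.49 and Spearman's rho = 0.55 across 79 genes, which are not independent replicates and share their libraries). Across the same members the WT difference at 72 h was more negative for those at higher levels in solvent (r = -0.56 with log2 CPM), a description that shares the WT solvent libraries on both axes.

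**Figure D3:**
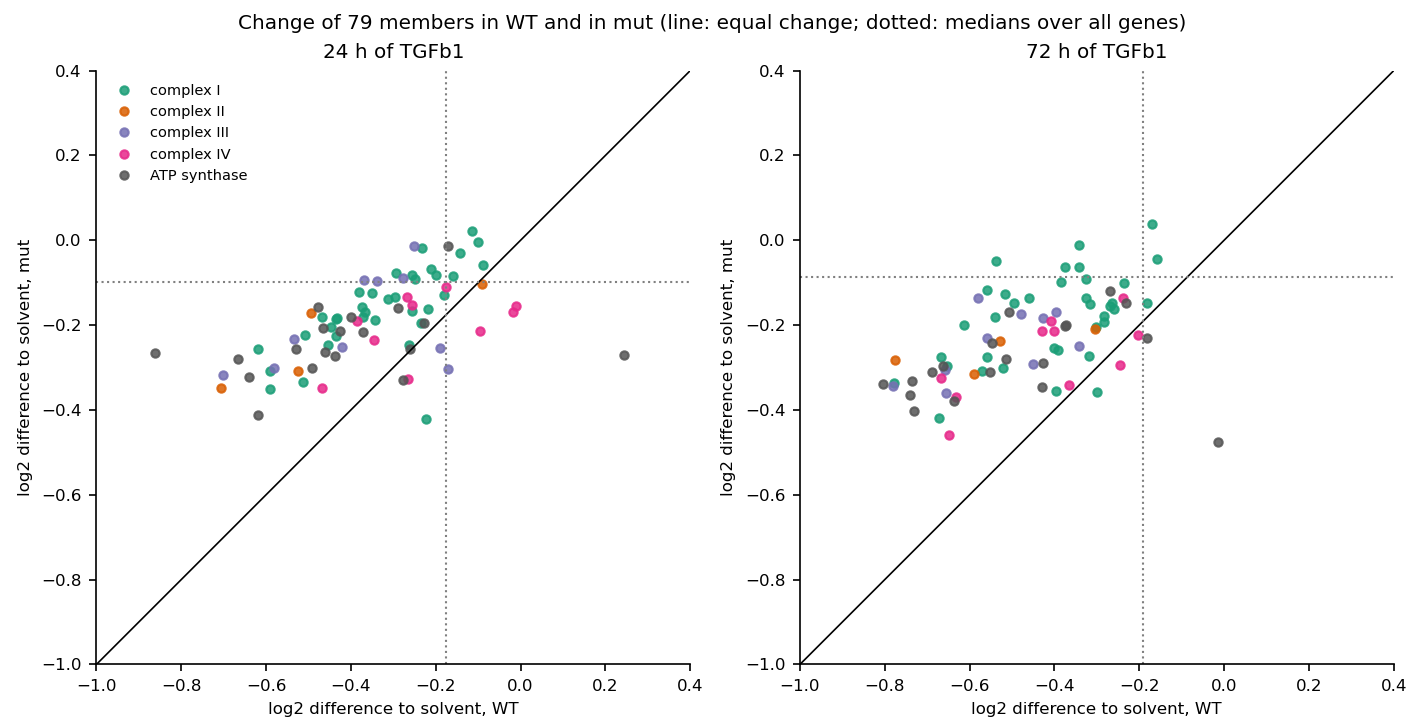
Log2 difference to solvent in mut (y axis) against that in WT (x axis) for the 79 tested members at 24 and 72 h, coloured by complex. The solid line marks equal difference and dotted lines the medians over all genes. At 72 h 74 of 79 members lie on the side of the larger fall in WT, as does the crossing of the all-gene medians. ATP5F1E is the point far below the line.

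The libraries of 1 clone and 1 replication number, called a series here, differed in how far the members moved. In WT at 72 h 77 to 79 of 79 members were below the solvent library of their own series in every series. The series medians relative to all genes were -0.34 and -0.34 for clone 2 and -0.21 and -0.25 for clone 27. In mut at 72 h the values were -0.25 and -0.20 for clone 1 and -0.22 and 0.06 for clone 65, where in replication 2 of clone 65 44 of 79 members were lower. At 24 h replication 2 of clone 1 was the exception, with 37 of 79 members lower, a relative median of 0.12 and a member sum of 9113 CPM beside 7758 to 8107 CPM in the other mut libraries. Without this library 43 members were called lower in mut at 24 h in place of 33, and without the clone 1 replication 1 library 18 were. Without the clone 65 replication 2 library 49 were called at 72 h in place of 45, and without the clone 1 replication 2 library 31 were.

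Levels between members were compared per kb of merged exons in WT solvent. The most abundant member was NDUFS5 in complex I (220 ± 23.1 CPM per kb, SD, n = 4), SDHB in complex II (49.0 ± 1.53), CYC1 in complex III (163 ± 16.7), COX8A in complex IV (374 ± 14) and ATP5F1B in ATP synthase (558 ± 14.5). The least abundant were NDUFA9 in complex I, SDHA in complex II (SDHC by canonical transcript), UQCRB in complex III and ATP5F1E, with the uncertain counts given above, in ATP synthase. In complex IV COX6B2 (0.0596 CPM) and COX7A1 (0.0109 CPM) were within or below the range of the level of 3 counts and could not be ordered. The order in complex III depended on the length used, with UQCRC1 first by the longest transcript and UQCRHL first by the canonical transcript.

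Among the 13 mitochondrially encoded subunits of the same complexes few were called. MT-CO3, a subunit of complex IV, was lower in WT at 72 h (-0.31 ± 0.11 SE, adjusted p = 0.0168) under library-size scaling. With TMM factors MT-CO3 was not called (adjusted p = 0.286), and MT-ND2 was called higher (0.31, adjusted p = 0.0402). In mut at 72 h 0 were called under either scaling. The list median in WT at 72 h was -0.08, beside -0.43 for the nuclear-encoded members. In mut against WT at 72 h MT-ND5 was lower (-0.34 ± 0.14, adjusted p = 0.0499) and no other gene of the list was called. The summed level ranged from 16616 to 20430 CPM in WT and from 17581 to 19131 CPM in mut at 72 h.

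Most genes of the other nuclear lists for mitochondrial functions were also lower in WT at 72 h. The counts with TMM factors were 30 of 49 assembly factors, 60 of 76 mitochondrial ribosomal protein genes, 18 of 22 tricarboxylic acid cycle genes and 10 of 18 regulators. Of all genes 23.3% were called lower with TMM factors. In mut at 72 h the counts with TMM factors were 6 of 49, 8 of 76, 11 of 22 and 3 of 18, beside 9.91% of all genes. Of 49 assembly factors tested, 38 were lower in WT at 72 h and 14 in mut under library-size scaling, where 38.4% and 16.3% of all genes were. SDHAF3 (-0.97, adjusted p = 2.86e-05) and LYRM7 (-0.91, adjusted p = 7.24e-08), which assist the assembly of complexes II and III, had the largest differences. Of 76 mitochondrial ribosomal protein genes 67 were lower in WT and 22 in mut, led by MRPS27 (-0.77, adjusted p = 1.36e-10) and MRPL4 (-0.76, adjusted p = 2.69e-08). For 48 of these 76 the interaction at 72 h was called (all genes 9.40%), and with TMM factors for 25 (all genes 4.53%). Of 22 genes for the tricarboxylic acid cycle and pyruvate dehydrogenase 20 were lower in WT and 17 in mut. Among them PDK4, a kinase that inhibits pyruvate dehydrogenase, fell by 2.44 (SE 0.72, adjusted p = 0.00578) and PC, pyruvate carboxylase, by 1.40 (SE 0.10, adjusted p = 2.73e-11) on the log2 scale in WT. Both were higher in mut than in WT in solvent (PDK4 by 1.40, adjusted p = 0.0209, and PC by 0.33, adjusted p = 0.0165). Among subunits whose symbols the rule does not take, COX4I1 (-0.50, adjusted p = 7.56e-07) and NDUFAB1 (-0.50, adjusted p = 3.50e-07) were lower in WT at 72 h, 4 of 5 tested in all. In mut against WT in solvent the assembly factors COX19 (0.47, adjusted p = 0.0438) and SDHAF3 (0.42, adjusted p = 0.047) and the ribosomal protein genes MRPS18B (0.23, adjusted p = 0.0238) and MRPL10 (0.20, adjusted p = 0.0246) were higher. None of these 4 solvent calls, nor those of PDK4 and PC, remained without the WT solvent library of clone 27 replication 2 (adjusted p = 0.0841 to 0.109), and with replications of a clone summed COX19 alone of the 6 was called (adjusted p = 0.00862).

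Of 18 regulators of mitochondrial biogenesis 16 were lower in WT at 72 h and 4 in mut, where 1 was higher. Of all genes 38.4% and 16.3% were called lower. With TMM factors 10 were lower in WT and 3 in mut, beside 23.3% and 9.91% of all genes, and 1 was higher in each. PPARGC1B, a PGC-1 family coactivator, was at 33.8 ± 5.98 CPM in WT solvent and 12.2 ± 1.41 CPM at 72 h (SD, n = 4, log2 difference -1.46 ± 0.15 SE, adjusted p = 4.29e-09). In mut it was at 33.1 ± 2.16 and 21.4 ± 5.25 CPM (-0.66 ± 0.13, adjusted p = 0.0003). ESRRG, an estrogen-related receptor, was low and fell in WT from 1.22 ± 0.334 to 0.33 ± 0.142 CPM (-1.91 ± 0.40, adjusted p = 0.000196). PPARGC1A, which encodes the coactivator PGC-1α, was at 0.129 ± 0.0872 CPM in WT solvent and 0.814 ± 0.218 CPM in mut solvent (2.72 ± 0.70, adjusted p = 0.00855). The lowest WT solvent library, at 0.0502 CPM, was below the level of 3 counts. At 72 h it was at 0.321 ± 0.262 CPM in WT and at 1.96 ± 0.446 CPM in mut, where it was the gene of this list that rose (1.23 ± 0.37, adjusted p = 0.0145). GABPB1, a GABP subunit, was called higher in WT at 72 h with TMM factors (adjusted p = 0.000919) and not under library-size scaling (0.20, adjusted p = 0.0576).

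**Figure D4:**
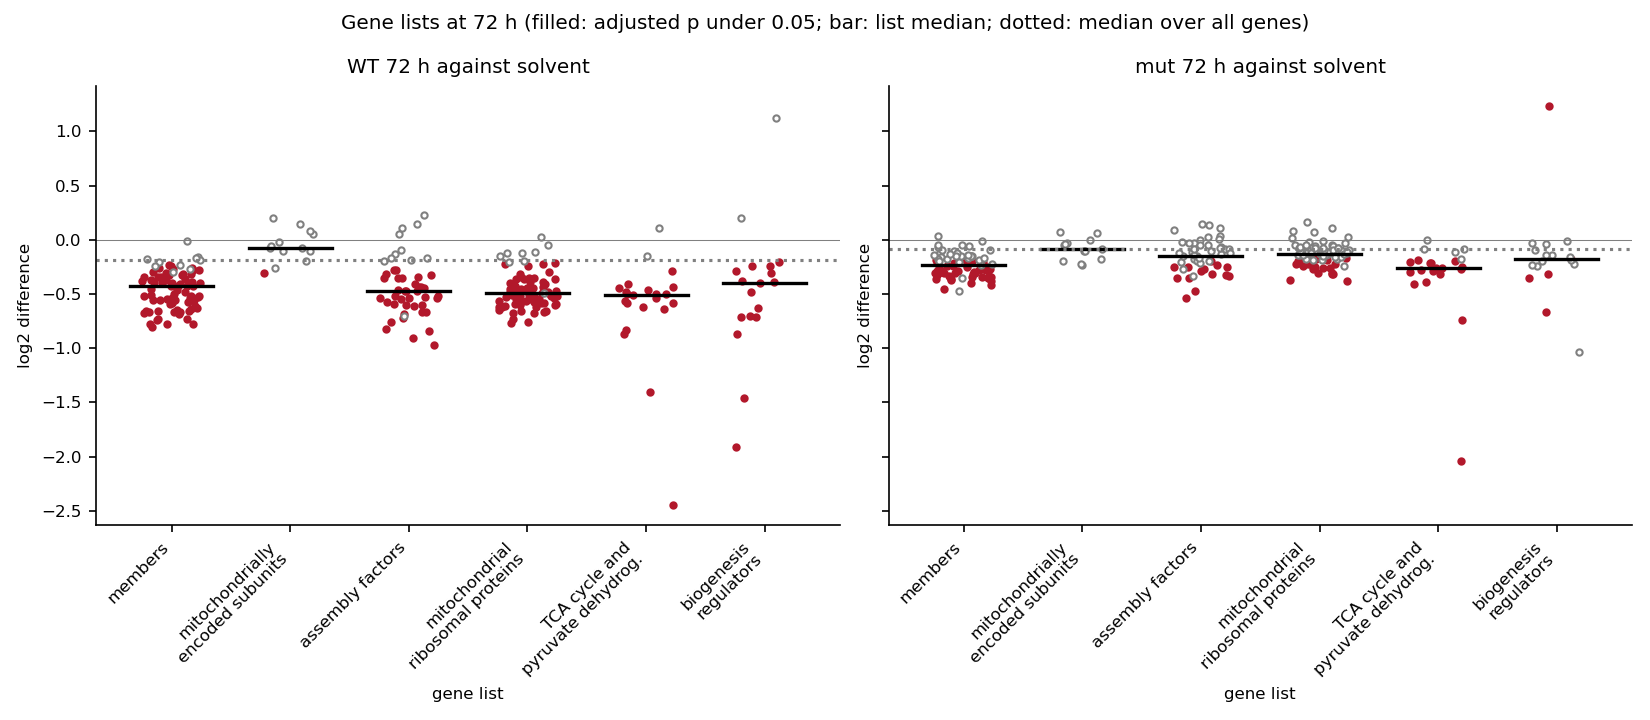
Log2 difference to solvent at 72 h (y axis) of the 79 tested members and of 5 other gene lists (x axis) in WT (left) and mut (right). Points are genes, filled where the adjusted p was under 0.05, bars are list medians and dotted lines the medians over all genes. In WT the median was -0.43 for the members and -0.08 for the mitochondrially encoded subunits.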

How the data were processed

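RNA-seq counts per gene were analysed for 32 libraries of MCF10A clones. The authors deposited raw counts, as whole numbers for every gene in every library, and did not normalize them. The authors trimmed reads with Trimmomatic and used STAR for alignment to GRCh38 (Ensembl) and for counting. The versions and the strand setting of the counting are not given in the sources used here, and the library kit keeps no strand information. Of the members 27 overlap another gene of the table, and reads in shared stretches could belong to either gene. No per-sample column was left unused (0).

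Groups followed genotype, treatment and time in the labels. Genes were filtered with filterByExpr (minimum count 10, minimum total 15) and tested with limma 3.58.1 (voom, library-size scaling, no covariates, all 8 groups in 1 model, two-sided, R 4.3.3) as in the study's methods, with Benjamini-Hochberg adjustment over 14865 genes and a threshold of 0.05. CPM were computed from each library's total count. Alternatives used TMM factors and the quasi-likelihood test of edgeR 4.0.16, DESeq2 1.42.0, other filters, replicate blocks, summed clones and left-out libraries. In data simulated for WT at 72 h against solvent over 14865 genes, limma-voom recovered 91% of genes changed by 1 and 51% of those changed by 0.5 on the log2 scale. The simulation changed 200 genes, as many up as down, and drew every library independently. It held no clone or series effects and no shift toward lower genes, unlike the data, so that recovery in the data can differ.

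Gene names and lengths came from GENCODE 44, which matched 17763 of 17788 rows. Promoter windows were those of RefSeq. The members and lists were chosen with earlier results of these data known. Genes were named as the 3 called members with the largest difference in each direction of 7 comparisons (or the lowest p where none was called), catalytic subunits, ATP5IF1, tissue-restricted isoforms with their partners, the most and least abundant member per complex, and 2 called genes per list. Lists, motifs and comparisons other than these are summarised by counts, and further members named beside a count of those called or not called were named after their values were seen.

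Libraries of 1 clone and replication number form a series by their labels. Deviations from the group means correlated within series with a mean of 0.303 over 48 pairs (0.0283 to 0.673, over 0.1 in 46), so that not every pair met that level, and the series were paired on the labels. Replicate libraries differed beyond counting error (lowest chi-square per degree of freedom 11.6). The p-values measure the spread among the 4 libraries within a group, which mixes differences between 2 clones with those between their replications. They treat these libraries as independent samples. Depth was 39702412 to 54651906 counts, and floors of 3 counts cover counting error only.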

Additional observations from a re-analysis of the deposited data

Results flagged for a closer look

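Results of 2 kinds stood apart by fixed rules. The first is a library whose gap to its neighbours filled most of the range of its group of 4. This occurred in 9 of 256 groups examined, a smaller share than the about 5% that chance alone gives. In WT at 72 h replication 2 of clone 27 had the highest summed level of all members (6400 CPM, the others at 5960 to 6008), of complex I (2228, the others at 2087 to 2102) and of ATP synthase (2069, the others at 1899 to 1917). Without this library 72 members were called lower in WT at 72 h in place of 69. The sum of all members contains those of complex I and ATP synthase, so that these flags are not separate. In mut at 6 h replication 1 of clone 65 had the highest complex I sum (3210, the others at 2987 to 2993). In mut at 72 h replication 2 of clone 65 had the highest CPM of COX6A1 (79.6, the others at 68.9 to 70.4) and of SDHB (124, the others at 106 to 109). Single WT libraries stood apart for COX5B at 24 h (92.5 CPM), NDUFA8 at 72 h (57.3 CPM) and UQCRFS1 at 6 h (129 CPM).

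The second kind is a response to TGFβ1 that differed between WT and mut by the interaction term. This was called for 12 members at 24 h and 26 at 72 h, with the largest terms at 72 h for SDHD (0.49), UQCRHL (0.44) and NDUFB5 (0.44) on the log2 scale.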

How the results depend on the processing

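Counts of called members moved by more than 1.5 times under several alternatives, of which the edgeR and DESeq2 tests change both the scaling and the test. With TMM factors the counts were 0 and 39 in WT at 6 and 24 h, 0, 8 and 23 in mut at 6, 24 and 72 h, 28 in mut against WT at 24 h, and 0 and 9 for the interaction at 24 and 72 h. The edgeR quasi-likelihood test gave 0 and 39 in WT at 6 and 24 h, 0, 6 and 21 in mut at 6, 24 and 72 h, 13 and 28 in mut against WT at 6 and 24 h, and 1 and 9 for the interaction at 24 and 72 h. Of all 14865 genes tested, edgeR called 3484 lower in WT at 24 h, and 1080 and 1331 lower in mut at 24 and 72 h. It called 1459 and 2458 higher in mut against WT at 6 and 24 h, and 469 and 711 for the interaction at 24 and 72 h. DESeq2 gave 0 and 39 in WT at 6 and 24 h, 5 and 24 in mut at 24 and 72 h, 29 in mut against WT at 24 h, and 3 and 10 for the interaction at 24 and 72 h. Over all genes DESeq2 called 3503 lower in WT at 24 h, and 1114 and 1456 lower in mut at 24 and 72 h. Its all-gene counts were 2662 higher in mut against WT at 24 h, and 686 and 803 for the interaction at 24 and 72 h. In mut at 6 h DESeq2 called 3 members, of which 2 were higher. No low-count filter gave 1 in WT at 6 h. With replications of a clone summed, which leaves fewer samples, the counts were 0 in WT at 6 h, 0, 14 and 28 in mut at 6, 24 and 72 h, 2 and 6 in mut against WT in solvent and at 6 h, and 2 and 3 for the interaction at 24 and 72 h. Of all 14865 genes tested, 1417 and 1574 were then lower in mut at 24 and 72 h. In mut against WT 659 and 1096 were higher in solvent and at 6 h, and for the interaction 229 and 446 at 24 and 72 h. Among members that overlap no other gene, of which there are fewer, 2 were called in WT and 3 in mut at 6 h. The cause of the other differences was not tested.

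Scaling also moved the share of lower genes among all called ones. From library-size scaling to TMM factors it went from 69.8 to 46.9% in WT at 6 h, from 72.9 to 49.7% at 24 h and from 73.5 to 52.0% at 72 h. In mut it went from 70.6 to 42.4%, from 71.6 to 46.5% and from 67.6 to 48.0%. In mut against WT it went from 33.1 to 51.7% at 24 h and from 33.7 to 48.9% at 72 h, and for the interaction from 20.0 to 48.6% and from 23.7 to 47.8% at the same times.

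With the series as a replicate block 65 and 73 members were called in WT at 24 and 72 h, 40 and 51 in mut, and 14 and 32 for the interaction, none moved by more than 1.5 times. The block with TMM factors gave 1 and 41 in WT at 6 and 24 h, 5 and 16 in mut at 6 and 24 h (4 of the 5 higher), and 5 and 15 for the interaction at 24 and 72 h.

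Without the WT series of clone 27 replication 2 the counts were 1 in WT at 6 h and 8 in mut against WT at 6 h. Without the mut series of clone 1 replication 2 they were 1 in WT at 6 h, 28 in mut at 72 h and 2 for the interaction at 24 h. Without both, an alternative chosen after seeing the data, they were 1 in WT at 6 h, 10 in mut against WT at 6 h and 1 for the interaction at 24 h. Leaving out single libraries gave 1 to 3 in WT at 6 h, 55 to 65 at 24 h and 65 to 73 at 72 h. In mut it gave 0 to 3, 18 to 43 and 31 to 49. In mut against WT it gave 4 to 9 in solvent, 9 to 27 at 6 h, 35 to 55 at 24 h and 54 to 66 at 72 h, and for the interaction 0, 5 to 13 and 16 to 34. The WT 72 h member median relative to all genes ranged from -0.30 to -0.22 over these.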
